A study of Homo sapiens with 8 samples.

Results

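The genes described here are the 4 TEAD transcription factors (TEAD1, TEAD2, TEAD3 and TEAD4), the coactivators YAP1 and WWTR1 (whose protein is called TAZ), the cofactors VGLL2 and VGLL4, and CCN1 and CCN2, a pair of standard YAP target genes. These 10 genes, of 60652 gene rows in each count table, were listed by name and matched by symbol to their Ensembl identifiers. VGLL2 was in addition selected on its level in these libraries, because it was higher with the Tet guide of dCasMINI-VPR than with the non-targeting guide, so that difference is described here and its test is not used as evidence. Messenger RNA was measured in 8 libraries of HEK293T cells, a human line derived from embryonic kidney that here carried TRE3G-GFP, a fluorescent reporter gene whose promoter holds tet operator sites. In all 4 groups of 2 libraries, cells had been transfected with plasmids of an activator and of a guide RNA and then sorted for mCherry and BFP fluorescence after 2 days. The groups were dCasMINI-VPR with sgNT (non-targeting), dCasMINI-VPR with sgTet, dCas12a-VPR with crNT (non-targeting) and dCas12a-VPR with crTet. dCasMINI is a small Cas protein without cutting activity, dCas12a a larger one, and VPR joins the activation domains VP64, p65 and Rta to either. The labels do not say whether the libraries of a group came from separate transfections, so p-values measure the spread between these libraries only.

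TEAD proteins bind DNA but need a cofactor to act on transcription. In the Hippo pathway, the kinases STK3 and STK4 activate LATS1 and LATS2, which phosphorylate YAP1 and TAZ and keep them out of the nucleus. Without that phosphorylation YAP1 and TAZ join TEAD proteins and turn on genes such as CCN1 and CCN2. Proteins of the vestigial-like family also bind TEAD: VGLL4 competes with YAP1 and represses its targets, whereas VGLL2 is known mainly from skeletal muscle, where it takes part in differentiation with TEAD partners.

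The libraries held 17474404 to 21081942 reads assigned to genes, so that 3 reads equalled 0.142 to 0.172 CPM, counts scaled to the size of the library. Levels below are CPM after TMM scaling, group levels are means ± SD (n = 2), and differences are log2 fold changes ± SE from edgeR. Unmapped reads made up 14.4% and 12.7% in the crNT libraries and 8.32% to 9.62% in the other 6. The sgTet pair differed most, with a chi-square per degree of freedom over genes of 13.8 against 3.19 to 6.92 in the other pairs. The reporter checked the guide labels: EGFP had 54 to 78 reads in each of the 4 non-targeting libraries and 13709 to 22598 in each of the 4 Tet libraries. Summed HEK293T markers ranged from 1235 to 1511 CPM, mostly from IRS4, which had 811 to 1031 CPM. KRT8 had 56.3 to 60.1 CPM in the dCasMINI-VPR libraries and 89.8 to 105 CPM in the dCas12a-VPR libraries. Of the 8 markers, edgeR called 3 in sgNT against crNT (KRT8, IRS4 and NEFM; adjusted p under 0.05), beside 7.68% of all genes tested. It called 2 in crTet against crNT (NEFM and VIM), beside 6.32%, and 2 in sgTet against crTet (KRT8 and VIM), beside 4.28%. PTPRC of blood cells and HBB of red cells had no read in any library. The endothelial markers summed to 0.973 to 1.71 CPM. The fibroblast markers summed to 35.9 to 49.5 CPM, mostly from COL1A1, which had 32.4 to 44.4 CPM. Every other gene of that list had at most 1.84 CPM in any library.

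The promoters bear on both the guides and the TEAD factors, and 3 stretches are shown for that reason. All come from the RefSeq windows of 250 bases before to 50 after a gene's start (build GRCh38.p14), which held 13 windows for 7 of the 10 genes. TEAD1, TEAD4 and CCN1 were not in that table. The letters GGAATG, or CATTCC on the other strand, are the core of the known TEAD binding motif. They occurred in 14.0% of all 35116 windows, and 3 or more times in 0.128%. The CCN2 window held 3 matches, which start 169, 104 and 95 bases before the gene's start, and the YAP1 window held 1, at 162 bases before. The windows of VGLL2, VGLL4, TEAD2, TEAD3 and WWTR1 held none, which says only that these letters are not there. In the first pair of sequences the capitals mark GGAATG. The first is chr6:131951433-131951552 on the minus strand and the second chr11:102110267-102110306 on the plus strand.
CCN2: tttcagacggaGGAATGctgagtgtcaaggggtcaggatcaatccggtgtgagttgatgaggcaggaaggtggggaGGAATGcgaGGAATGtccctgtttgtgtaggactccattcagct
YAP1: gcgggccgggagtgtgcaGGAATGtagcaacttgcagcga
The last stretch is the 120 bases just before the VGLL2 start, chr6:117265438-117265557 on the plus strand. Its capitals mark overlapping matches of TTTA on both strands, the kind of T-rich letters (TTTA or TTTG) that CasMINI needs beside its target.
VGLL2: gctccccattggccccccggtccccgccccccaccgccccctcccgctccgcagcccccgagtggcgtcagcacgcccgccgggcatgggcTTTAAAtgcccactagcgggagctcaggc
Such letters are common: 87.4% of all windows held TTTA or TTTG on either strand, with a median of 3 matches, and the VGLL2 window held 3. The guide sequences were not used here, so no guide was matched to any of these promoters. Letters for dCas12a were not searched separately, so the marks do not tell the activators apart.

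VGLL2 stood apart from the other 9 genes in the dCasMINI-VPR sgTet libraries, and the TEAD factors and YAP1 were called in no comparison. In the contrast of sgTet with sgNT, the fit called 1 of the 10 genes, VGLL2, at an adjusted p under 0.05, beside 0.795% of the 16606 genes tested. That contrast was used to choose VGLL2, so nothing is read from the count, and no p is given for it. In the contrast of crTet with crNT, 0 of 10 genes were called, beside 6.32% of genes tested. There DESeq2 also called 0. It gave no adjusted p for VGLL2, so it is not among the alternatives given below for VGLL2 in that contrast. An unadjusted edgeR p under 0.05 was found for 5 genes (VGLL4, TEAD1, TEAD2, YAP1 and WWTR1), beside 3287 of all 16606 genes tested. The remaining comparisons involve the sgNT or sgTet libraries that chose VGLL2, so they count the 9 genes besides it. Between the non-targeting groups, sgNT against crNT, 1 of 9 fell (CCN2), beside 7.68% of genes tested. Between the Tet groups, sgTet against crTet, 2 of 9 fell (CCN1 and CCN2) and 1 rose (WWTR1), beside 4.28% of genes tested. The difference between the 2 guide effects was called for 1 of 9 (WWTR1), beside 1.35% of genes tested. For the non-targeting groups 1 of 9 lies near the background. For the Tet groups 3 of 9 lies above it, but ran from 0 to 3 over the alternatives. Comparisons between sgNT and crNT or sgTet and crTet set activators against each other, and the deposited files of each activator are also named as a set of their own, so activator and preparation cannot be told apart.

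**Figure D1:**
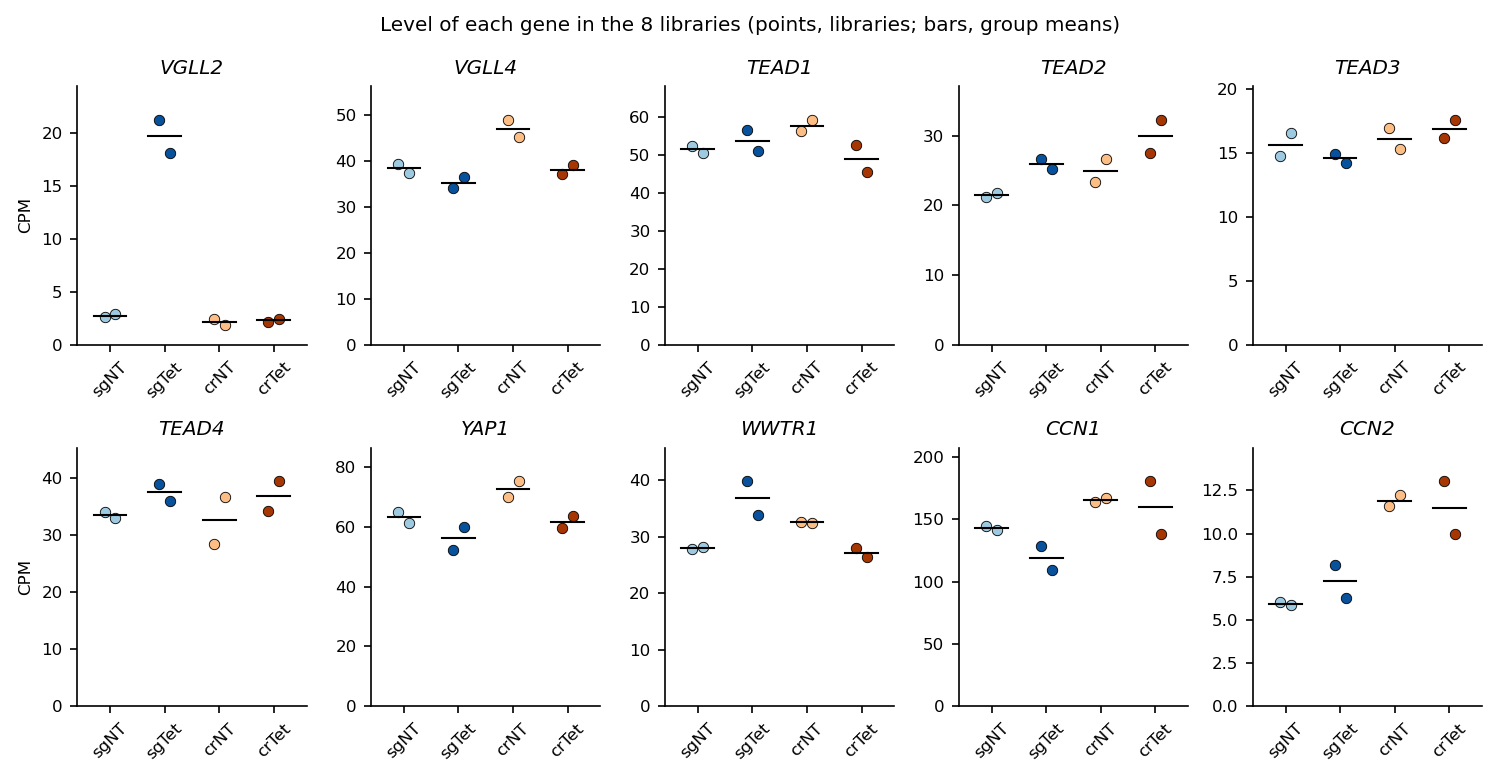
Each panel plots 1 gene, with CPM on the vertical axis from 0 and the 4 groups on the horizontal axis; points are libraries and bars are group means. VGLL2 was at 18.1 and 21.3 CPM in the sgTet libraries and at no more than 2.89 CPM in the other 6, and CCN2 was lower in the 4 dCasMINI-VPR libraries (5.84 to 8.15 CPM) than in the 4 dCas12a-VPR libraries (9.96 to 13.0 CPM).

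VGLL2 (ENSG00000170162.14, chr6:117265558-117273565, plus strand, hg38) was a low-level gene in 6 of the 8 libraries. It had 2.61 and 2.89 CPM with sgNT, 2.41 and 1.82 CPM with crNT, and 2.15 and 2.43 CPM with crTet. In the sgTet libraries it had 21.3 and 18.1 CPM, from 425 and 375 reads. Both sgTet libraries were thus above all others, without overlap. The group means were 19.7 ± 2.20 with sgTet, 2.75 ± 0.198 with sgNT, 2.29 ± 0.198 with crTet and 2.12 ± 0.414 with crNT. In that order, the last pair overlapped. The log2 difference of sgTet from sgNT was 2.84 ± 0.22, or 7.15-fold, and that of sgTet from crTet was 3.10 ± 0.23, or 8.60-fold. Over 17 alternatives, which included leaving out either sgTet library, the former ran from 2.57 to 3.21. The difference of sgNT from crNT was 0.38 ± 0.27. The same measure in libraries that did not choose the gene gave no call: with dCas12a-VPR, the Tet guide moved VGLL2 by 0.11 ± 0.27 (adjusted p = 0.875). Over 16 alternative settings that value ran from -0.29 to 0.54, with adjusted p of 0.464 to 0.991.

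Per kilobase of exon, which allows levels of different genes to be compared, VGLL2 had 1.23 CPM per kb with sgNT and 8.83 with sgTet, against 0.948 with crNT and 1.03 with crTet. VGLL4, the other vestigial-like gene among the 10, had 5.30, 4.86, 6.50 and 5.27 CPM per kb in the same order. On this measure VGLL4 was above VGLL2 in 6 libraries, by 3.98 to 7.63 times. It was below VGLL2 in the sgTet libraries, where the ratio of VGLL2 to VGLL4 per kb was 2.03 and 1.62. Undivided, VGLL4 was above VGLL2 in every library, also with sgTet (34.0 and 36.4 against 21.3 and 18.1 CPM). The order with sgTet thus depended on the division by the length of all annotated exons, 7236 bases for VGLL4 and 2231 for VGLL2. Set against the summed CPM per kb of the 4 TEAD genes, VGLL2 came to 3.66% and 4.03% with sgNT, 3.44% and 2.28% with crNT, and 2.78% and 2.83% with crTet. It came to 26.1% and 24.0% with sgTet. These ratios are of RNA and say nothing about protein amounts.

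No tested gene around VGLL2 differed between sgTet and sgNT by an amount near that of VGLL2. Of 16 other genes annotated within 500 kb, 4 passed the filter on low counts: RFX6, DCBLD1, GOPC and NUS1. RFX6, a winged-helix transcription factor gene 333.4 kb upstream, had 2.48 ± 0.749 CPM with sgNT and 1.92 ± 0.253 with sgTet. GOPC, which encodes a Golgi-associated protein, had 65.1 ± 0.341 and 61.7 ± 3.52 CPM. DCBLD1 had 34.1 ± 2.46 and 34.4 ± 0.976 CPM, and NUS1, a gene of dolichol synthesis, 173.4 ± 4.29 and 185.5 ± 10.3 CPM. On the log2 scale their sgTet minus sgNT differences ran from -0.36 ± 0.38 (RFX6) to 0.10 ± 0.07 (NUS1). The nearest gene, the receptor kinase gene ROS1 at 14.7 kb, had at most 0.154 CPM in any library, near the 3-read level, and was not tested. In the contrast of crTet with crNT, edgeR gave these 4 adjusted p of 0.134 (NUS1) to 0.859 (DCBLD1). Without sgTet replicate 1 or 2, NUS1 was called there (0.0332 and 0.0324). Between sgTet and crTet NUS1 was higher by 0.25 ± 0.07 (adjusted p = 0.0499), a call lost when any 1 library other than sgTet replicate 2 was left out (0.0876 to 0.318).

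**Figure D2:**
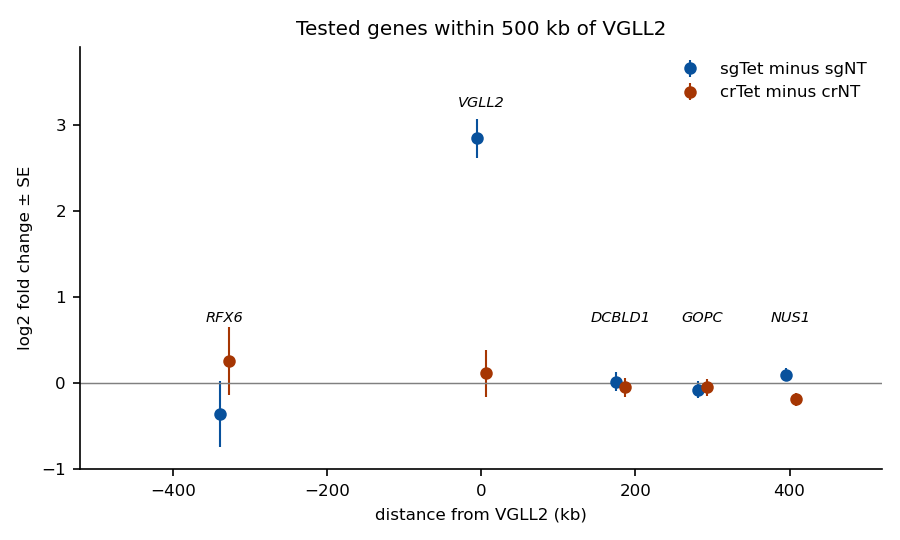
The vertical axis gives the log2 fold change ± SE of each tested gene within 500 kb, and the horizontal axis its distance from VGLL2 in kb; blue is sgTet minus sgNT and brown is crTet minus crNT. VGLL2 lies at 2.84 in blue and 0.11 in brown, and the 4 neighbours lie between -0.36 and 0.25 in both.

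Among 564 other named genes whose group means spanned at least 1 log2 unit, the 5 most like VGLL2 over the 8 libraries were NKX2-5, GDPD3, MCTP1, B3GALT5-AS1 and B3GALT5. Pearson's r of log2 CPM was 0.99 for NKX2-5, a homeobox gene best known from heart development, and 0.94, 0.92, 0.92 and 0.91 for the others. NKX2-5 had 345 and 341 CPM with sgTet and 69.7 to 89.1 CPM in the other 6 libraries. B3GALT5 and B3GALT5-AS1 lie on opposite strands of the same stretch of chromosome 21, and the counts used cannot separate reads of their shared stretches. The points are libraries of 4 groups that share the same contrast, so these r are a description of the pattern.

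The 4 TEAD genes were expressed in every library and none was called in any of the comparisons made. TEAD1 (ENSG00000187079.20, chr11:12674591-12944483, plus strand), the founding factor of the family, had 52.5 and 50.5 CPM with sgNT and 56.6 and 51.0 CPM with sgTet. With dCas12a-VPR it had 56.2 and 59.3 CPM for crNT and 52.5 and 45.5 CPM for crTet. Its libraries overlapped between sgNT and sgTet but not between crNT and crTet, where the difference of -0.24 ± 0.10 missed the threshold (adjusted p = 0.171).
TEAD2 (ENSG00000074219.14, chr19:49340595-49362457, minus strand), known from early embryos and neural tissue, had 21.2 and 21.8 CPM with sgNT and 26.7 and 25.2 CPM with sgTet. It had 23.3 and 26.6 CPM with crNT and 27.5 and 32.3 CPM with crTet. The Tet libraries were thus above the non-targeting libraries of the same activator, by 0.27 ± 0.13 with dCasMINI-VPR and by 0.26 ± 0.13 with dCas12a-VPR. The latter did not pass (adjusted p = 0.244), and the difference between these effects was 0.01 ± 0.18 (adjusted p = 0.982).
TEAD3 (ENSG00000007866.22, chr6:35473597-35497076, minus strand), known from placenta, was the steadiest of the 10 genes, at 14.2 to 17.6 CPM in all 8 libraries. Its group means varied by a coefficient of variation of 6.12%. TEAD4 (ENSG00000197905.10, chr12:2959330-3040673, plus strand), which acts in the trophectoderm of the early embryo, ranged from 28.4 to 39.4 CPM. Both extremes lay in dCas12a-VPR libraries, crNT replicate 1 and crTet replicate 2.
The TEAD2 gene overlaps CD37 on the opposite strand, which had a mean of 1.27 CPM, and counts without strand cannot assign reads where their exons overlap.

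Per kilobase, TEAD4 supplied the largest share of TEAD RNA in all 8 libraries. Its share was 44.9% ± 2.37 (SD, n = 8), followed by TEAD2 with 24.9% ± 1.95. These SD are taken over the libraries of all groups, so they mix differences between groups with the spread within them. TEAD3 and TEAD1 had 15.2% ± 1.51 and 15.1% ± 1.70, and which of them was higher changed between libraries. The order depended on the division by exon length: of undivided reads TEAD1, whose exons span 10279 bases, held 41.0% and TEAD4, with 2272 bases, 27.1%. The TEAD4 share ran from 39.8% in crNT replicate 1 to 47.0% in sgTet replicate 1. The TEAD2 share was lower in the sgNT libraries (22.2% and 22.7%) than in the other 6 (24.5% to 28.2%). The sum of the 4 genes stayed within 31.4 to 38.4 CPM per kb.

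**Figure D3:**
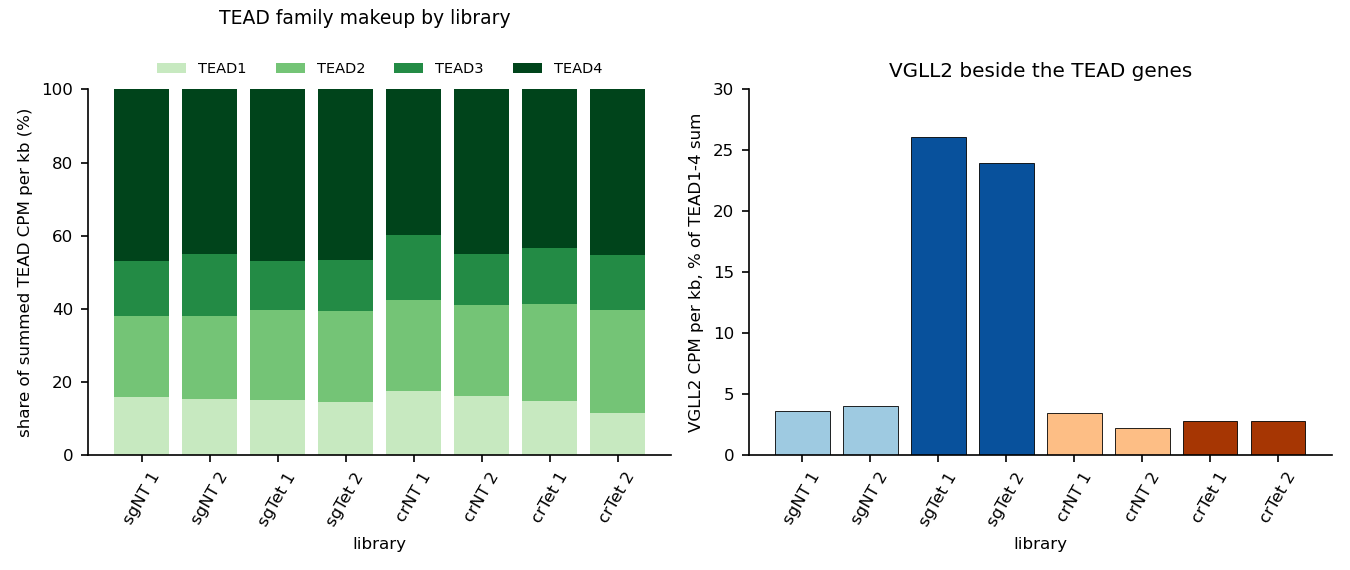
The left panel stacks the share of each TEAD gene in the summed TEAD CPM per kb (vertical axis, percent) for each library; the right panel gives VGLL2 as a percentage of that sum. TEAD4 is the largest band in every library, at 39.8% to 47.0%, and VGLL2 reaches 26.1% and 24.0% only in the sgTet libraries.

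YAP1, the main coactivator that the Hippo kinases restrain (ENSG00000137693.14, chr11:102110461-102233423, plus strand), had 65.1 and 61.4 CPM with sgNT and 52.3 and 60.1 CPM with sgTet. It had 70.2 and 75.3 CPM with crNT and 59.8 and 63.8 CPM with crTet. The crNT libraries were the highest of the 8 and sgTet replicate 1 the lowest. The difference of crTet from crNT, -0.24 ± 0.10, did not pass (adjusted p = 0.144), and neither did that of sgNT from crNT, -0.20 ± 0.10 (adjusted p = 0.214).

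WWTR1 (ENSG00000018408.15, chr3:149517235-149736714, minus strand), the gene of TAZ, had 39.8 and 33.8 CPM with sgTet, above all 6 other libraries. It had 27.9 and 28.1 CPM with sgNT, 32.6 and 32.4 CPM with crNT, and 28.1 and 26.3 CPM with crTet. With dCasMINI-VPR the Tet libraries were higher, by 0.39 ± 0.12, and with dCas12a-VPR they were lower, by -0.26 ± 0.12 (adjusted p = 0.209). WWTR1 was called in neither of these guide contrasts. The difference between these guide effects was 0.65 ± 0.17 (adjusted p = 0.0392), and WWTR1 rose by 0.44 ± 0.12 in sgTet against crTet (adjusted p = 0.0247). Neither call held throughout. The difference of guide effects was lost when any 1 library other than sgTet replicate 2 was left out (adjusted p = 0.102 and 0.213 without the sgNT libraries, 0.11 without sgTet replicate 1, 0.227 and 0.151 without those of crNT, 0.0715 and 0.118 without those of crTet), and the rise over crTet was lost without sgTet replicate 1 (0.247) or either crTet library (0.0763 and 0.189). The ratio of YAP1 to WWTR1 per kb was 1.76 and 2.37 in the sgTet libraries and 2.85 to 3.24 in the other 6. WWTR1-AS1, on the opposite strand, had a mean of 0.242 CPM.

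VGLL4, the vestigial-like repressor (ENSG00000144560.15, chr3:11556070-11771350, minus strand), was highest in the crNT libraries, at 48.9 and 45.1 CPM. It had 39.3 and 37.4 CPM with sgNT, 34.0 and 36.4 CPM with sgTet, and 37.2 and 39.0 CPM with crTet. The difference of crTet from crNT was -0.30 ± 0.11 (adjusted p = 0.0812) and that of sgNT from crNT -0.29 ± 0.11 (adjusted p = 0.0877), just short of the threshold. Over 17 alternatives the crTet difference ran from -0.36 to -0.13 and the sgNT difference from -0.35 to -0.06. Each passed in 3 alternatives and missed the threshold in 14. The 3 were the fit of only the groups compared and the fits without sgTet replicate 1 or 2. The sgTet libraries enter these contrasts through the shared spread and the genes tested, and without either 1 both differences were -0.30. VGLL4 overlaps ATG7 on the opposite strand, and ATG7 itself had a mean of 38.3 CPM, so the same holds for any exons they share. Of 4 further TEAD cofactor genes, VGLL1 and FAM181A had no read, VGLL3 had 9.35 to 12.7 CPM and FAM181B 1.69 to 3.28 CPM. Neither of the latter pair was called in any comparison.

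CCN1 and CCN2 were each called between activators and in neither guide contrast. CCN2 (ENSG00000118523.6, chr6:131948176-131951373, minus strand), which encodes connective tissue growth factor and whose promoter stretch with 3 GGAATG matches is printed above, had 6.05 and 5.84 CPM with sgNT and 8.15 and 6.29 CPM with sgTet. It had 11.6 and 12.2 CPM with crNT and 13.0 and 9.96 CPM with crTet. All 4 dCasMINI-VPR libraries were below all 4 dCas12a-VPR libraries. CCN2 fell by 1.0 ± 0.20 on the log2 scale in sgNT against crNT (adjusted p = 0.000832), and the call held in all 17 alternatives, at -1.04 to -0.94 with adjusted p of 1.93e-05 to 0.0258. The crNT libraries of this comparison are those with more unmapped reads, 14.4% and 12.7% against 9.62% and 9.11% with sgNT, and the part of that in the result was not tested. In sgTet against crTet, where unmapped reads were 8.32% to 9.55%, CCN2 fell by 0.67 ± 0.19 (adjusted p = 0.0366). That call was lost without sgTet replicate 2 (0.145), crTet replicate 1 (0.322) or either crNT library (0.056 and 0.0563), and under DESeq2 (0.0528). The Tet guides left CCN2 without a call: crTet differed from crNT by -0.05 ± 0.18 (adjusted p = 0.927), and sgTet from sgNT by 0.28 ± 0.20.

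CCN1 (ENSG00000142871.18, chr1:85580761-85583962, plus strand), which encodes a secreted matrix protein of the same family, was the most abundant of the 10 genes per kilobase. It had 145 and 141 CPM with sgNT, 128 and 109 CPM with sgTet, 164 and 168 CPM with crNT, and 181 and 139 CPM with crTet. Both sgTet libraries were below the other 6. CCN1 fell by 0.43 ± 0.10 in sgTet against crTet (adjusted p = 0.0122). The call was lost without sgTet replicate 2 (0.0616) or crTet replicate 1 (0.256), the library with the highest CCN1 and CCN2. In sgNT against crNT the difference was -0.21 ± 0.10 (adjusted p = 0.217), and in crTet against crNT -0.05 ± 0.10 (adjusted p = 0.829). Per kilobase, CCN1 stood at 48.4 to 67.5 CPM per kb over the group means and CCN2 at 2.54 to 5.09.

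**Figure D4:**
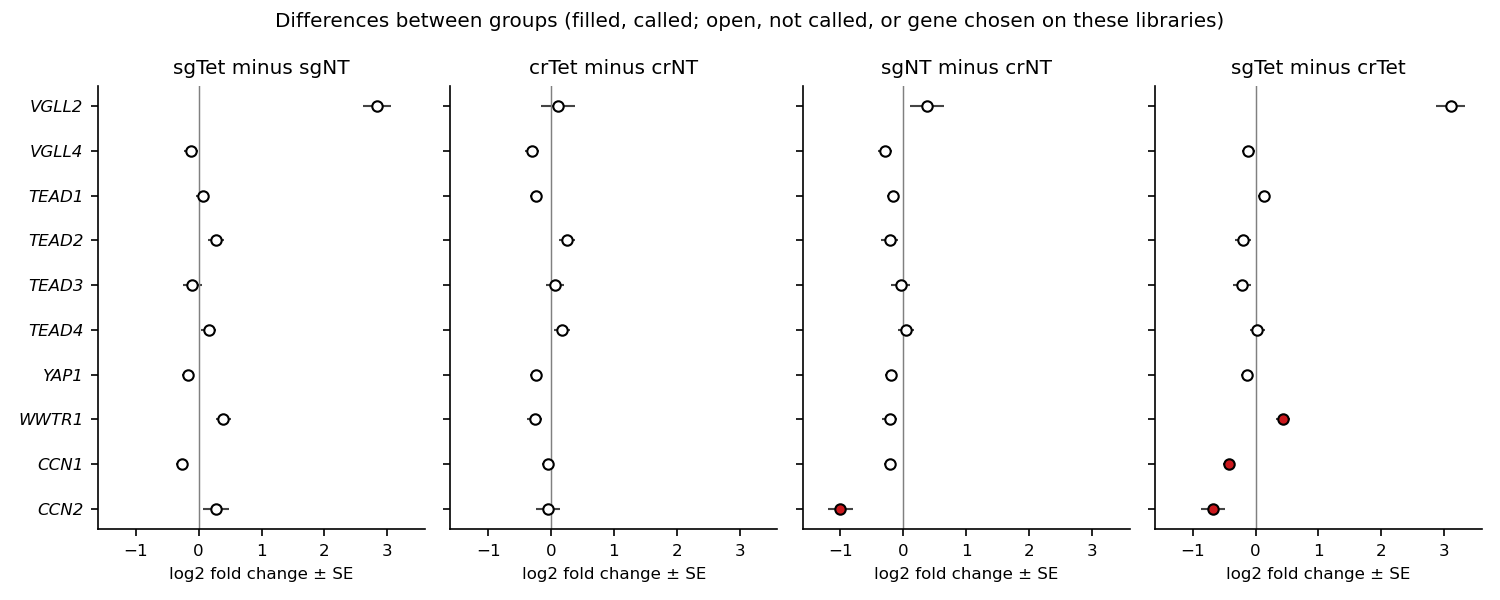
Points give the log2 fold change of each gene, with SE as bars, in 4 contrasts named above the panels; filled points were called, and open points were not called or belong to VGLL2 in a panel with the libraries that chose it. CCN2 is filled at -1.0 for sgNT minus crNT, and CCN2, CCN1 and WWTR1 are filled at -0.67, -0.43 and 0.44 for sgTet minus crTet, whereas VGLL2, at 2.84 and 3.10 in the first and last panels, is drawn unfilled there for that reason.

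Patterns closest to the targets were taken from 565 genes by the same rule. For CCN1 these were TLR5, NFATC2 and ARC, each with r of 0.94. For CCN2 they were SLC15A3 (0.97), IFIT2 (0.95) and IFIT3 (0.95), the latter pair being interferon-induced genes. IFIT3 had 146 to 171 CPM in the dCasMINI-VPR libraries and 270 to 372 CPM in the dCas12a-VPR libraries.

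Most kinases and upstream regulators of the Hippo pathway were not called. Of 33 listed genes 32 were tested. Between crTet and crNT 3 rose and 1 fell, beside 6.32% of all genes tested, with a list median of -0.05 beside 0.01 for all genes tested. TAOK2, a kinase upstream of the Hippo kinases, rose by 0.50 ± 0.09 (adjusted p = 0.000775), from 64.6 ± 0.319 CPM with crNT to 91.0 ± 2.21 with crTet. AMOT, which binds YAP1, rose by 0.24 ± 0.07 (adjusted p = 0.0228), and WWC1 (KIBRA), an activator of LATS, rose by 0.44 ± 0.13 (adjusted p = 0.0315). RASSF1, a scaffold of the Hippo kinases, fell by 0.45 ± 0.11 (adjusted p = 0.0131). The TAOK2 call held in all 17 alternatives. RASSF1 was lost without any 1 of the crNT and crTet libraries (adjusted p = 0.0531 to 0.294), AMOT without crTet replicate 1 (0.136) or any 1 of the sgNT and crNT libraries (0.0517 to 0.365), and WWC1 without crTet replicate 2 (0.295) or either crNT library (0.137 and 0.348).
Between sgNT and crNT 3 of the 32 rose and 1 fell, beside 7.68% of all genes tested. The rises were TAOK2 by 0.56 ± 0.09 (adjusted p = 6.74e-05), AMOT by 0.35 ± 0.07 (0.000552) and WWC1 by 0.46 ± 0.13 (0.0196). AMOTL2, a motin that is itself a YAP target, fell by 0.49 ± 0.13 (0.0175). These comparisons share the crNT libraries, in which TAOK2, AMOT and WWC1 were each lower than in the other 6 libraries. AMOT was lost there without crNT replicate 1 (0.0515), WWC1 without sgNT replicate 2 (0.282) or either crNT library (0.239 and 0.103), and AMOTL2 without either sgNT library (0.0598 and 0.236) or crNT replicate 1 (0.502).
Between sgTet and crTet 1 of the 32 was called, beside 4.28% of all genes tested. It was AMOTL2, which fell by 0.56 ± 0.14 (adjusted p = 0.0122), from 24.8 ± 0.568 to 16.8 ± 0.842 CPM. That call was lost without either crTet library (0.0779 and 0.0527). The central kinases STK3, STK4, LATS1 and LATS2 were called in none of the comparisons, and LATS1 had 62.5 to 79.1 CPM.

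Of 20 other YAP and TAZ targets, 19 were tested and 3 (AMOTL2, LATS2 and PTPN14) stand in the former list too. ANKRD1, a target as standard as CCN1, had at most 0.361 CPM and was not tested. Between crTet and crNT 2 of the 19 were called, beside 6.32% of all genes tested: FOXF2 rose by 0.51 ± 0.15 (adjusted p = 0.0473) and GADD45A, a DNA-damage response gene, fell by 0.47 ± 0.09 (adjusted p = 0.000889). The list median was 0.11 there. FOXF2 was lost without crNT replicate 1 (0.525) or either crTet library (0.234 and 0.18), and GADD45A without crNT replicate 1 (0.0977). GADD45A had 96.5 and 90.1 CPM with sgNT and 63.5 and 69.4 CPM with sgTet, and so was lower with the Tet guide of either activator.
Between sgNT and crNT 3 of the 19 were called, beside 7.68% of all genes tested. AMOTL2 and CCDC80, a matrix protein gene, fell, the latter by 1.11 ± 0.28 (adjusted p = 0.0111), and FJX1 rose by 0.52 ± 0.15 (adjusted p = 0.0294). CCDC80 was lost without either sgNT library (0.0914 and 0.0806) or crNT replicate 2 (0.219), and FJX1 without either sgNT library (0.138 and 0.193) or crNT replicate 1 (0.419). Between sgTet and crTet 2 of the 19 were called, beside 4.28% of all genes tested. AMOTL2 and the receptor kinase gene AXL fell, AXL by 1.37 ± 0.40 (adjusted p = 0.0449), with a list median of -0.17. AXL had only 22 and 24 reads in the sgTet libraries, and its call was lost when any 1 of the sgTet, crTet or crNT libraries was left out (adjusted p = 0.0548 to 0.298). The difference between guide effects was called by edgeR for 0 of 19, beside 1.35% of all genes tested, and by DESeq2 for 0, which gave no adjusted p for 16 of them. At an unadjusted p under 0.05 edgeR had 2 of the 19, and 2637 of all 16606.

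**Figure D5:**
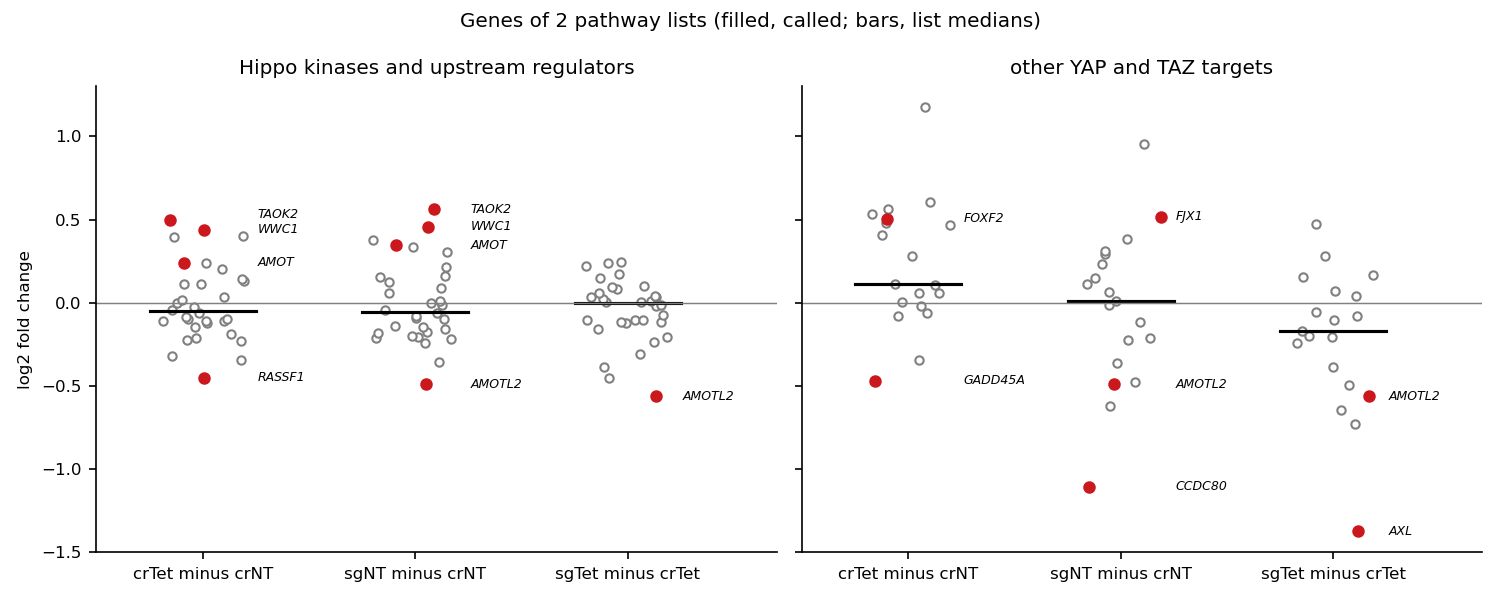
The vertical axis gives the log2 fold change of each gene of the Hippo list (left) and the target list (right) in 3 contrasts on the horizontal axis; filled named points were called and bars are list medians. Most points lie near 0, TAOK2 is filled at 0.50 and 0.56 in the first and second columns, and AMOTL2, which is in both lists, is filled at -0.49 and -0.56.

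VGLL2 is a muscle cofactor, so 29 skeletal muscle genes were listed beside it, of which 16 were tested. MYF5, MYF6, MYMK, MYL1 and TNNI2 had no read in any library, and MYOG had at most 0.205 CPM. MYOD1, the master regulator of myogenesis, had 2.39 ± 0.476 CPM with sgNT and 1.84 ± 0.270 with sgTet. TNNT3, a fast troponin gene, had no read in either sgNT library and 90 and 127 reads in the sgTet libraries, at 5.32 ± 1.16 CPM. Against a floor of 3 reads over both sgNT libraries it was at least 66.1-fold higher with sgTet. It had 0 and 5 reads with crNT and 0 and 2 with crTet, so it passed the filter through the sgTet libraries alone. TNNT1, a slow troponin gene, had 37.3 ± 3.73 CPM with sgTet and 53.0 ± 1.36 with crTet, and fell by 0.50 ± 0.10 in that comparison (adjusted p = 0.00261), a call that held in all 17 alternatives. It rose by 0.34 ± 0.10 in crTet against crNT (adjusted p = 0.0441), which was lost without any 1 of the sgNT, crNT and crTet libraries (adjusted p = 0.0641 to 0.383). DES, which encodes desmin, fell by 1.54 ± 0.45 in sgTet against crTet (adjusted p = 0.0446), from 2.17 ± 0.512 to 0.742 ± 0.365 CPM, and was lost without sgTet replicate 2 or any 1 of the crNT and crTet libraries (0.0653 to 0.283). Of the 16, edgeR called 0 in sgNT against crNT, beside 7.68% of all genes tested, and 1 in crTet against crNT (TNNT1), beside 6.32%. In sgTet against crTet it called 3 (TNNT1, DES and TNNT3), beside 4.28%. TNNT3 is counted there only because the sgTet libraries passed it through the filter, so nothing is read from its call. In the contrast of sgTet with sgNT the median of the 16 was -0.14, beside 0.0003 for all genes tested. Bulk RNA cannot tell a change in the number of cells that carry a transcript from a change in its level per cell. This holds for VGLL2 and TNNT3 as for the rest.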

How the data were processed

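Per the labels' protocols, polyadenylated RNA was copied with random hexamers and sequenced. Per the submitters' processing notes, reads were aligned to hg38 with STAR, whose version is not given in the sources used here. The authors deposited unnormalized counts per gene in 3 columns for each library. The first, which ignores strand, was used, since 50.3% to 50.7% of strand-assigned reads were forward. The 4 rows of totals that name no gene were left out. Of 60652 rows, 60437 had a symbol and 58361 a GENCODE 29 position.

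Counts were fitted with edgeR 4.0.16 (robust quasi-likelihood, TMM, filterByExpr by group) in R 4.3.3, in 1 model of 8 libraries and 4 group means, which tested 16606 genes two-sided. The fit had a common coefficient of biological variation of 8.04%, 4 residual and a median of 28.9 prior degrees of freedom. Calls are Benjamini-Hochberg adjusted p under 0.05 over all genes tested. SE is the size of the log2 fold change over the square root of F. Where 1 library stands alone in its group, its spread is taken from the other groups. Alternatives were DESeq2 1.42.0, other size factors, other filters, the strand columns, fits of only the groups compared, a replicate block, and each library left out.

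The members, lists, tests and naming rule were chosen with earlier results of these data known. The rule named all 10 members, up to 4 called genes per list and contrast by smallest adjusted p, the 5 genes most like VGLL2 and 3 each for CCN1 and CCN2 (Pearson's r of log2 CPM with a prior count of 2, genes with mean log2 CPM of at least 0), tested genes within 500 kb of VGLL2, and EGFP. Further names were chosen after their values were seen. Of 10 members 10 passed the filter. Replicates of a group differed by more than sampling noise (chi-square per degree of freedom 3.19 to 13.8, the largest between the sgTet libraries).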

Additional observations from a re-analysis of the deposited data

Results flagged for a closer look

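The genes looked at here were the 9 members besides VGLL2 and those tested of the Hippo (32), target (19), cofactor (2) and muscle (16) lists. The Hippo and target lists share 3 genes. Among them edgeR called the difference between the guide effects of the 2 activators for WWTR1 and TAOK2, beside 224 of all 16606 genes tested. It also called TNNT3, but that call is not usable. WWTR1 had 39.8 and 33.8 CPM with sgTet against 27.9 and 28.1 with sgNT, and 28.1 and 26.3 with crTet against 32.6 and 32.4 with crNT, a difference of guide effects of 0.65 ± 0.17 (adjusted p = 0.0392). In both sgTet libraries WWTR1 was above both sgNT libraries, and in both crTet libraries it was below both crNT libraries. It kept that call in 5 of 15 alternatives.

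TAOK2 had 92.7 and 98.3 CPM with sgNT and 77.1 and 92.1 with sgTet, against 64.4 and 64.8 with crNT and 92.6 and 89.5 with crTet. The difference of guide effects was -0.67 ± 0.13 (adjusted p = 0.0049), and was lost without sgNT replicate 2 (0.0911) or crNT replicate 1 (0.0551).

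TNNT3 passed the filter on low counts only through the sgTet libraries, where it is high, so its call supports nothing. It had no read with sgNT and 90 and 127 reads with sgTet, but 0 and 5 reads with crNT and 0 and 2 with crTet. The adjusted p of its difference of guide effects was 0.00555, and it rose to 1 without crNT replicate 2, the library with the 5 reads, and to 0.104 with forward-strand counts. The fitted fold rests on libraries at 0 and is not given.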

How the results depend on the processing

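The 9 genes besides VGLL2 had 5 calls in all, which under the alternatives gave 83 values: 56 still called, 27 not called and none reversed. Of 669 values of their uncalled results, 8 were called and 661 were not, and 23 of the latter had another sign, at most 0.21 in size. The counts that follow leave VGLL2 out, except for sgTet against sgNT, where it is the 1 gene always called. Leaving out each library in turn gave 1 to 2 genes called for sgTet against sgNT, 0 to 1 for crTet against crNT, 1 to 2 for sgNT against crNT, 0 to 3 for sgTet against crTet and 0 to 1 for the difference of guide effects. Fits of only the groups compared called 1 gene (VGLL4, adjusted p = 0.0362) for crTet against crNT, 3 for sgNT against crNT (CCN2, CCN1 at 0.00396 and VGLL4 at 0.0147) and 0 for sgTet against crTet. For sgTet against crTet the forward-strand and reverse-strand counts, which hold fewer reads, called 1 each. For the difference of guide effects the count was 0 under DESeq2, which gave WWTR1 no adjusted p, with library size alone (WWTR1 at 0.0501; the cause was not tested) and with either strand's counts. Undivided by length, TEAD1, TEAD2, TEAD3 and TEAD4 held 41.0%, 19.7%, 12.2% and 27.1% of TEAD reads.

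Replicate numbers did not pair the libraries: deviations of same-numbered libraries correlated at -0.03 to 0.05 between groups. The replicate block gave 1, 0, 1, 3 and 1 genes called in the order above, as without it, and 174, 1255, 1453, 894 and 400 genes in all.

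Counts over all genes moved too, given here apart from leaving out single libraries. The 132 called for sgTet against sgNT became 84 to 276, and the 1049 for crTet against crNT became 661 to 1785. The 1276 for sgNT against crNT became 944 to 2968, and the 711 for sgTet against crTet became 317 to 894. The 224 for the difference became 106 to 450. Leaving out single libraries took the counts outside these ranges in every comparison. The counts were highest without sgTet replicate 2 in each comparison that involves sgTet. Such fits leave 1 library in a group, so their counts are not given. The shares of all genes tested that stand beside the calls thus depend on single libraries too. Without sgTet replicate 2, which leaves 1 sgTet library, WWTR1 was called beside VGLL2 for sgTet against sgNT, at 0.51. With library size alone the share of calls that were higher went from 56.4% to 41.9% for crTet against crNT, from 59.1% to 46.0% for sgTet against sgNT and from 39.2% to 28.5% for sgTet against crTet. At this depth VGLL2 in the 6 low libraries rests on 37 to 51 reads.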
